A study of Mus musculus with 8 samples.

Results

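Primordial germ cell-like cells sorted from testicular organoids at day 6 of culture (tod-PGCLCs, 2 libraries) were compared with undifferentiated tcESCs (2 libraries) by RNA sequencing. The comparison held every gene with a mean count above 10 over these 4 libraries, which was 16473 of the 46078 gene identifiers in the count files. Of these, 3083 genes were higher and 1864 lower in tod-PGCLCs (30% of all), where a call needed a fold change over 2 and an adjusted p under 0.05 in edgeR's quasi-likelihood test. The median log2 fold change over all genes tested was 0.03.

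The tcESCs were an ES cell line from male embryos carrying tesco-cfp, a CFP reporter driven by an enhancer of Sox9, on a C57BL/6 background (XY;tesco-cfp). They were grown in N2B27 2iLIF (the MEK inhibitor PD0325901, the GSK3 inhibitor CHIR99021 and LIF) and were not sorted. The tod-PGCLCs were labelled XY;Prdm1-gfp, also on C57BL/6, and so came from a different ES cell line, in which GFP reports Prdm1. These ESCs had been turned into epiblast-like cells with bFGF, activin A and serum replacement, aggregated with day 8 testicular somatic-like cells (tc;Sf1TesLCs) made from a tcESC clone that constitutively expresses Sf1 (Nr5a1), and kept in RAG medium with CHIR99021 before dissociation and sorting for GFP with a second surface marker, given as CD49f for the organoid cells and as SSEA1 in the RNA sequencing methods only. Cell line, medium, sorting and differentiation differed together between the groups and cannot be told apart. Libraries of the Sf1-expressing clone (tc;Sf1ESC, 2) and of day 12 CFP-sorted Sertoli cell-like cells made from it (SCLC, 2) served as further references. In these bulk libraries, fewer cells of a type and less RNA per cell cannot be told apart.

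Mouse primordial germ cells (PGCs) arise from epiblast cells that switch on the transcription factors PRDM1, PRDM14 and TFAP2C. They repress the somatic programme, regain pluripotency factors, and erase DNA methylation and imprints across the genome while they migrate to the gonad. Only there do they switch on late germ cell genes, among them Ddx4 and Dazl, many of which are silenced by promoter methylation and by Polycomb-related complexes elsewhere. PGC-like cells made through epiblast-like cells are taken as a model of the early, pre-gonadal stage.

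Counts assigned to genes ranged from 25411033 to 30680191 over the 4 libraries, and 2.07% to 2.64% of them were mitochondrial. Replicates differed by a log2 value with an SD of 0.296 (tcESCs) and 0.401 (tod-PGCLCs) across genes. The duplicates are described as biological, but no source used here says whether they came from separate cultures. The p-values and standard errors therefore measure only the spread between duplicates, estimated over all 8 libraries, which may be technical. The SCLC pair, which enters that estimate, differed most (SD 0.542). With 2 libraries a group, the libraries of the groups did not overlap for 84.4% of all genes tested, so a lack of overlap by itself says little about a gene.

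Checks of the labels came first. Prdm1, the gene whose reporter was sorted on, was at 7.90 and 8.09 CPM (counts scaled to a common library size) in tcESCs and at 168 and 182 CPM in tod-PGCLCs, which the sort itself selects for. Itga6, which encodes CD49f, was at 275 and 263 CPM against 214 and 169 CPM and was not called. Fut4, a fucosyltransferase that can make the SSEA1 epitope, was at 0.0786 and 0.0971 CPM in tcESCs and at 4.79 and 5.89 CPM in tod-PGCLCs, a ratio of 60.1 with a 95% exact interval of 25.5 to 186. That interval, like all counting intervals and floors given here, covers counting error only. Fut9, the other such enzyme examined, was at 64.4 and 59.3 CPM against 78.1 and 68.7 CPM and was not called.

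The Y-linked genes went against the XY label of the tod-PGCLC libraries. Ddx3y, an RNA helicase gene, was at 16.1 and 15.96 CPM in tcESCs and at 0.856 and 0.887 CPM in tod-PGCLCs. Eif2s3y fell from 11.2 CPM in both tcESC libraries to 2.16 and 1.81 CPM, Uty from 5.19 and 5.28 to 0.856 and 0.816 CPM, and Kdm5d from 1.61 and 1.33 to 0.240 and 0.106 CPM. The SCLCs held 51.6 and 45.6 CPM of Ddx3y. Xist, the RNA of the inactive X chromosome, was at 4.60 and 5.44 CPM in tcESCs and at 5.34 and 8.59 CPM in tod-PGCLCs, and was not called. The cause of the low Y-linked levels was not tested.

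**Figure D1:**
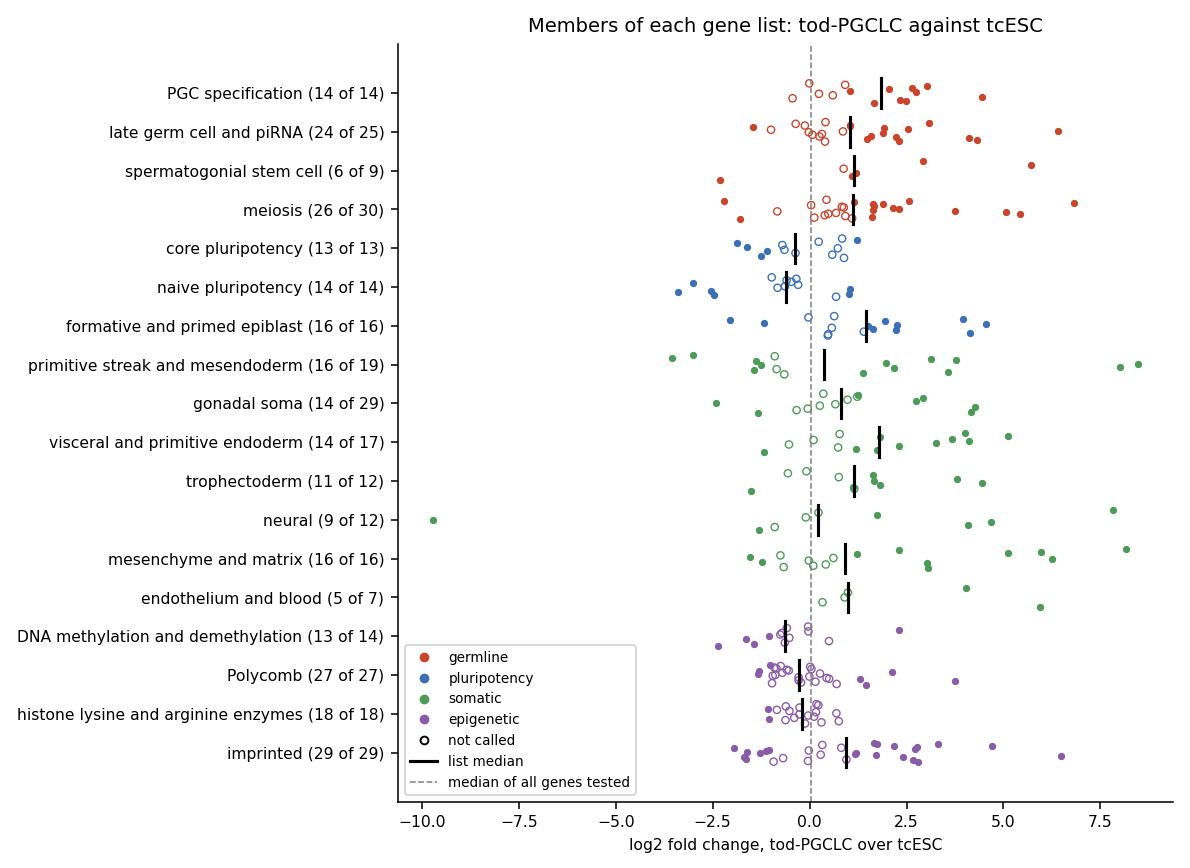
Log2 fold change of tod-PGCLCs over tcESCs (x axis) for the tested members of 18 gene lists (y axis, with the number tested of the number listed), coloured by programme. Filled points passed the call and open points did not, black bars are list medians, and the dashed line is the median of all genes tested, 0.03. The germline lists lie mostly to the right and the naive pluripotency and DNA methylation lists mostly to the left.

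Genes of PGC specification were mostly higher in tod-PGCLCs, but not all of the defining ones. Of 14 members, 9 were called higher, 1 of which was the sorted gene Prdm1, and none lower, beside 18.7% higher and 11.3% lower among all genes tested, and the list median was 1.85. All 14 had mean counts above 10 in both groups. Tfap2c, Dppa3 and Dnd1 rose, whereas Prdm14, Nanos3, Kit and Alpl did not pass the test.

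Tfap2c encodes the AP2 factor that acts with PRDM1 in PGC fate. It was at 58.5 and 62.1 CPM in tcESCs and at 175 and 208 CPM in tod-PGCLCs (log2 fold change 1.67 ± 0.14 (SE), adjusted p = 1.37e-05). Dppa3 (Stella), a maternal factor that marks early PGCs and restrains methylation maintenance, was at 24.6 and 25.7 CPM against 146 and 171 CPM (2.65 ± 0.41, adjusted p = 4.90e-04). Dnd1, an RNA-binding protein needed for germ cell survival, was at 5.03 and 6.12 CPM against 35.9 and 55.9 CPM (3.04 ± 0.36, adjusted p = 9.86e-05). All 3 genes had higher values in both tod-PGCLC libraries than in either tcESC library, but the libraries did not overlap for 84.4% of all genes.

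Surface markers of early PGCs moved less evenly. Itgb3 (CD61), a surface integrin used to purify PGC-like cells, was at 7.70 and 6.18 CPM in tcESCs and at 48.2 and 45.1 CPM in tod-PGCLCs (2.75 ± 0.27, adjusted p = 3.45e-05). The interferon-inducible membrane genes Ifitm1 (48.6 and 49.0 against 175 and 227 CPM) and Ifitm3 (132 and 149 against 269 and 311 CPM) were called higher too. The fold of Ifitm3 lay close to the limit of 2, and it fell under it without replicate 1 of tcESC (log2 fold change 0.91) or replicate 2 of tod-PGCLC (0.93). The X-linked homeobox genes Rhox6 and Rhox9, which lie in a cluster of close copies and are therefore uncertain, were called higher at 2.34 ± 0.23 and 2.50 ± 0.30. Rhox6 was at 30.0 and 25.4 CPM in tod-PGCLCs and at 81.6 and 126 CPM in SCLCs. Rhox9 was at 32.5 and 31.6 CPM against 46.0 and 92.4 CPM, so both were higher still in SCLCs.

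The remaining defining genes were already at a like level in the ES cells or stayed low in both. Prdm14 was at 61.6 and 61.3 CPM in tcESCs and at 48.0 and 42.6 CPM in tod-PGCLCs (−0.44 ± 0.27, adjusted p = 0.180). Nanos3, which protects migrating PGCs from cell death, was at 1.93 and 1.98 CPM against 2.05 and 3.87 CPM (0.60 ± 0.35, adjusted p = 0.163). Kit, the receptor for the survival ligand KITL, was at 213 and 201 CPM against 247 and 243 CPM, and Alpl, the alkaline phosphatase by which PGCs are stained, at 401 and 413 CPM against 391 and 418 CPM. Cxcr4, the receptor that guides migrating PGCs, was at 2.55 and 2.91 CPM against 3.77 and 6.60 CPM (0.92 ± 0.38, adjusted p = 0.0589), and it passed the call without replicate 1 of tod-PGCLC (1.27). Against tc;Sf1ESCs, Cxcr4 was called higher (2.16, adjusted p = 0.00156) and Nanos3 lower (−1.64, adjusted p = 0.00172). In all, 5 of the 14 members were not called.

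Late germ cell genes and genes of the piRNA pathway, which silences transposons in the male germline through small RNAs, included many genes called higher. Of 25 members, 13 were called higher and 1 lower, beside 18.7% and 11.3% of all genes. A further 10 were not called and 1 (Nanos2) was not tested. The list median was 1.05, and 4 of the 24 members tested had a mean count above 10 in 1 group only. The 2 genes most used as late germ cell markers differed from each other.

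Ddx4, the germ cell helicase also called vasa or Mvh, was at 14.3 and 13.9 CPM in tcESCs and at 30.3 and 28.1 CPM in tod-PGCLCs (1.05 ± 0.12, adjusted p = 8.61e-05). Its fold lay at the limit of 2, and without replicate 2 of tcESC or replicate 1 of tod-PGCLC it fell to a log2 value of 0.98 or 0.99. Dazl, an RNA-binding licensing factor of gametogenesis, was at 171 and 190 CPM in tcESCs and at 183 and 98.6 CPM in tod-PGCLCs (−0.36 ± 0.38, adjusted p = 0.435), with overlapping libraries. The tc;Sf1ESC libraries, made from the same parental line, held only 39.4 and 40.1 CPM of Dazl and 2.85 and 3.05 CPM of Ddx4, and against that reference, for which 32.9% of all genes were called, tod-PGCLCs were higher for both (1.83, adjusted p = 0.00332, and 3.31, adjusted p = 3.85e-07). The direction for Dazl therefore depended on which ES cells were the reference.

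Several piRNA pathway genes were nearly silent in the ES cells. Piwil4 (Miwi2), the nuclear PIWI protein that directs transposon methylation, was at 0.118 and 0.0971 CPM in tcESCs and at 11.6 and 7.06 CPM in tod-PGCLCs, a ratio of 88.2 (95% exact interval 40.3 to 241, adjusted p = 5.72e-06). Tdrkh, a Tudor protein of piRNA trimming, was at 0.275 and 0.421 CPM against 7.81 and 6.49 CPM (4.32 ± 0.31, adjusted p = 5.96e-06). Tdrd7, a Tudor protein of germ granules, was at 1.10 and 1.94 CPM against 26.4 and 27.8 CPM (4.12 ± 0.19, adjusted p = 6.32e-07). The SCLC libraries held 63.1 and 68.5 CPM of Tdrd7 and 5.53 and 3.99 CPM of Tdrkh, so both transcripts were present there too, while Piwil4 was at 0.557 and 0.293 CPM there.

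Brdt, a testis bromodomain protein, was at 1.26 and 0.777 CPM in tcESCs and at 9.69 and 7.35 CPM in tod-PGCLCs (3.08 ± 0.30, adjusted p = 3.61e-05). Mov10l1, the helicase that feeds precursors into the piRNA pathway, was at 1.96 and 2.69 CPM against 16.1 and 11 CPM (2.53 ± 0.35, adjusted p = 2.68e-04). Tdrd5, needed for piRNA processing in male germ cells, was at 4.56 and 4.99 CPM against 20.4 and 24.1 CPM (2.22 ± 0.17, adjusted p = 9.09e-06). The rule that named these 3 genes required libraries that do not overlap, so their separation was set by that choice.

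Promoters of 4 late germ cell and meiosis genes, picked among those with a match, are shown for the short motifs through which E2F6 and MGA-MAX, both parts of a Polycomb-related complex, are known to bind germline genes. The windows run from 250 bases before to 50 after the transcript start and were taken from RefSeq on the build GRCm38.p6. Capitals mark CACGTG (the E-box, its own reverse complement) and TTCCCGC or its reverse complement GCGGGAA (the E2F motif), searched on both strands. They belong to 3 genes of the late germ cell list and to the meiosis gene Sycp3, all of which were called higher, and are given 5′ to 3′ on the gene's strand. Mael and Slc25a31 were chosen after their values were seen.
Ddx4: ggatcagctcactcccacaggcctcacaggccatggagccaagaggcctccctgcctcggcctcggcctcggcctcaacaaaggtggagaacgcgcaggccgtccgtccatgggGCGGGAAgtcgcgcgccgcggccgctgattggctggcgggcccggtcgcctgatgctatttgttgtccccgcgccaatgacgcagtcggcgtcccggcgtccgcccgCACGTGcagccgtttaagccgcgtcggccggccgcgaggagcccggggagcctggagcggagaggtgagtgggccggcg
Mael: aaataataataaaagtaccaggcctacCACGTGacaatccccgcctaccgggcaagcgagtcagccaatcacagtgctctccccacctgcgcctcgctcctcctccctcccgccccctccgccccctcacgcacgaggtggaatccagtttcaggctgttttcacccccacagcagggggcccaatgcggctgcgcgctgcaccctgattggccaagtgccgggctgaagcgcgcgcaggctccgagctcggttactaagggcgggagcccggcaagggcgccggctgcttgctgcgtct
Slc25a31: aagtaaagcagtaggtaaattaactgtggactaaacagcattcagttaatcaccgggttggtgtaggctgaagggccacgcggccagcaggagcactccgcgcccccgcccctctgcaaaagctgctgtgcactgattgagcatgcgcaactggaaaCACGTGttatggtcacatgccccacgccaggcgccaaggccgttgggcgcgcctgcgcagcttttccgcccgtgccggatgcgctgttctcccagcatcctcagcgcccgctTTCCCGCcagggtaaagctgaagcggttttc
Sycp3: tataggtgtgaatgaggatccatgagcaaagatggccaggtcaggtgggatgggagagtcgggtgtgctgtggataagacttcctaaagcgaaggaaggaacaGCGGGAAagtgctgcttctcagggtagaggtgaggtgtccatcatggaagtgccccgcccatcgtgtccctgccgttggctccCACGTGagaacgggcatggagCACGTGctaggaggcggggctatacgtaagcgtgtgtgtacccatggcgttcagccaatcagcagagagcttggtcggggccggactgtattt

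The Ddx4 window lay at chr13:112652261-112652560 on the minus strand and held 38 CpG sites, 1 E-box and 1 E2F motif. That of Mael, a piRNA pathway gene at 4.64 and 7.38 CPM in tcESCs and 26.9 and 18.6 CPM in tod-PGCLCs, lay at chr1:166238695-166238994 on the minus strand, with 24 CpG sites and 1 E-box. That of Slc25a31, a germ cell ADP/ATP carrier at 1.65 and 2.20 CPM against 8.22 and 6.32 CPM, lay at chr3:40708621-40708920 on the plus strand, with 22 CpG sites and 1 match to each motif. The Sycp3 window lay at chr10:88459337-88459636 on the plus strand and held 15 CpG sites, 2 E-boxes and 1 E2F motif. The median window of all 27025 genes held 8 CpG sites.

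RefSeq windows were matched for 23 of the 25 late germ cell members and for 26 of the 30 meiosis members. The E-box was in 11 late germ cell genes (47.8%) and 8 meiosis genes (30.8%), against 8.09% of all genes. The median window held 23 CpG sites in the late germ cell list and 18 in the meiosis list, and the E-box and the E2F motif each contain a CpG. The E2F motif was in 3 late germ cell genes (13.0%) and 12 meiosis genes (46.2%), against 5.29% of all genes, and 7 meiosis genes had both motifs (26.9% against 0.514%). The naive pluripotency list, with 10 of 14 members matched and a median of 17.5 CpG sites, had the E-box in 2 genes (20%) and the E2F motif in 1 (10%). Within these lists the E-box was in 7 of 13 late germ cell genes called higher and in 4 of the 10 others, and in 2 of 11 meiosis genes called higher and 6 of the 15 others. The E2F motif was in 3 of those 13 late germ cell genes and 0 of the 10 others, and in 5 of the 11 meiosis genes and 7 of the 15 others. Of the 7 PGC specification members matched, none held either motif. Either motif was in 52.2% of the late germ cell and 50% of the meiosis windows, so the rest held neither. A match describes these letters only and shows no binding.

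Genes tied to spermatogonial stem cells gave a mixed picture. Of 9 members, 4 were called higher, 1 lower, 1 was not called and 3 were not tested, beside 18.7% higher and 11.3% lower among all genes, and 2 of the 6 tested had a mean count above 10 in 1 group only. Gfra1, the GDNF co-receptor, was at 0.0393 and 0.0648 CPM in tcESCs and at 2.74 and 3.30 CPM in tod-PGCLCs, a ratio of 56.6 (95% exact interval 19.05 to 277, adjusted p = 5.70e-05), and at 6.76 and 3.55 CPM in SCLCs. Its signalling partner Ret rose from 2.99 and 3.08 CPM to 6.95 and 6.88 CPM (1.19 ± 0.20, adjusted p = 8.59e-04). Dmrtb1, a factor of the mitosis to meiosis transition, was at 0.314 and 0.389 CPM against 2.64 and 2.80 CPM (2.93 ± 0.48, adjusted p = 7.21e-04).

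The remaining stem cell genes differed in size and direction. Zbtb16 (PLZF), a factor of self-renewal, fell from 8.29 and 9.36 CPM to 1.51 and 2.02 CPM (−2.32 ± 0.23, adjusted p = 3.69e-05), but against tc;Sf1ESCs it was not called (−0.52, adjusted p = 0.0926). Id4, a marker of the stem cell fraction, was at 6.09 and 6.86 CPM against 11.4 and 12.5 CPM (0.88 ± 0.28, adjusted p = 0.0222) and stayed under the fold limit. Sohlh2, a germ cell helix-loop-helix factor, was at 47.7 and 52.2 CPM against 115 and 98.6 CPM (1.10 ± 0.30, adjusted p = 0.0108), a call that was lost without either tcESC library (0.98 and 1.11) or without replicate 1 of tod-PGCLC (0.98).

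Several meiosis genes were higher in tod-PGCLCs, among them Stra8 and Meiob, and Hormad1 was lower. Of the 30 members listed, 28 were matched by symbol and 26 tested, with 13 called higher, 2 lower (18.7% and 11.3% among all genes) and 11 not called. The list median was 1.13, and 4 of the 26 had a mean count above 10 in 1 group only. Stra8, the retinoic acid-induced gate to meiosis, was at 2.20 and 2.10 CPM in tcESCs and at 67.3 and 76.0 CPM in tod-PGCLCs (5.06 ± 0.46, adjusted p = 2.48e-05). The SCLCs also held 65.3 and 23.9 CPM of Stra8.

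Rec8, the meiotic cohesin subunit, was at 15.2 and 12.8 CPM against 58 and 80.6 CPM (2.31 ± 0.16, adjusted p = 4.97e-06), but the tc;Sf1ESCs were at 61.4 and 59.7 CPM, and against them it was not called (0.19, adjusted p = 0.268). Hormad2, a chromosome axis protein, was at 2.16 and 1.98 CPM against 13.4 and 10.9 CPM (2.56 ± 0.26, adjusted p = 4.13e-05). Its relative Hormad1 moved the other way, from 44.6 and 47.4 CPM to 12.2 and 7.81 CPM (−2.20 ± 0.36, adjusted p = 7.54e-04). The axis genes thus did not move as a block.

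Among synaptonemal complex and recombination genes, Sycp3, Mnd1, Spo11 and Meiob rose, whereas Sycp1, Syce1 and Dmc1 were not called. Sycp3, the lateral element protein, rose from 2.20 and 2.17 CPM to 8.15 and 5.29 CPM (1.62 ± 0.30, adjusted p = 0.00129), whereas Sycp1, the transverse filament, was at 4.91 and 4.79 CPM against 6.44 and 6.28 CPM (adjusted p = 0.158). Syce1, a central element protein, was at 6.95 and 6.15 CPM against 11.2 and 9.83 CPM, under the fold limit, and the meiotic recombinase gene Dmc1 was at 17.7 and 14.3 CPM against 22.4 and 20.8 CPM and was not called, although against tc;Sf1ESCs it was called higher (1.42, adjusted p = 0.00122). Mnd1, a partner of the recombinases, rose from 8.92 and 10.1 CPM to 28.5 and 30.4 CPM (1.63 ± 0.28, adjusted p = 8.75e-04). Spo11, which makes the breaks that start recombination, had 1 and 3 reads in tcESCs and 9 and 49 in tod-PGCLCs, a ratio of 14.2 (95% exact interval 5.27 to 54.0; 4.34 without replicate 2 of tod-PGCLC and 25.7 without replicate 2 of tcESC) whose call was lost without replicate 1 of tcESC (adjusted p = 0.0632) and without replicate 2 of tod-PGCLC (adjusted p = 0.0515). Meiob, a single-strand binding protein of meiotic recombination, had 1 and 0 reads against 94 and 52, a ratio of 143 (95% exact interval 25.3 to 5699, adjusted p = 5.91e-04), which was 64.8 without replicate 2 of tcESC.

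**Figure D2:**
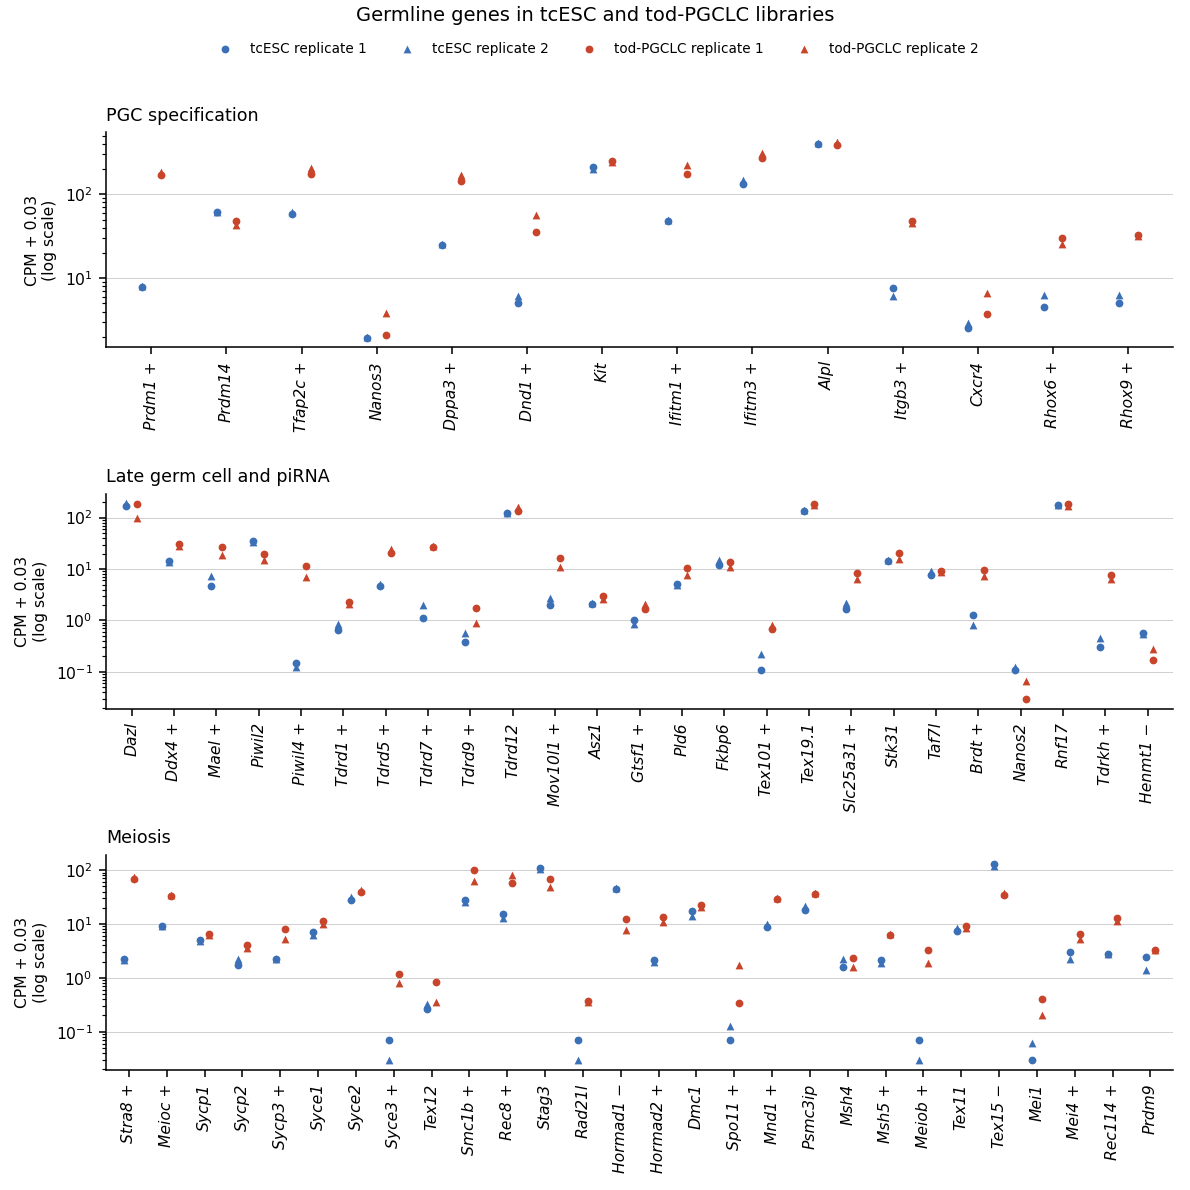
CPM (log scale, with a small constant added so that 0 can be drawn) of the PGC specification, late germ cell and piRNA, and meiosis genes in each library, with tcESCs in blue and tod-PGCLCs in red; a plus or minus after a symbol marks a gene called higher or lower in tod-PGCLCs. Tfap2c, Dppa3, Piwil4 and Stra8 lie clearly higher in red, whereas Alpl, Dazl and Rnf17 overlap.

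Core and naive pluripotency genes were called lower in like numbers, and the naive genes Klf4, Tbx3, Socs3 and Tfcp2l1 fell most. Of 13 core members, 1 was called higher (7.69%, against 18.7% of all genes), 4 lower (30.8%, against 11.3%) and 8 were not called, with a median of −0.36. Against tc;Sf1ESCs, 4 core members were called higher and 2 lower, so that balance turned with the ES cell reference. Of 14 naive members, 2 were called higher (14.3%), 4 lower (28.6%) and 8 were not called, with a median of −0.61. All 27 had mean counts above 10 in both groups. The ES cells had been grown with LIF and a MEK inhibitor, which hold up naive genes, and medium and cell type cannot be told apart.

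In the core list, Sox2, the partner of OCT4, was at 504 and 524 CPM in tcESCs and at 767 and 773 CPM in tod-PGCLCs (0.58 ± 0.35, adjusted p = 0.171). Nanog, which guards pluripotency and is needed in PGCs, was at 938 and 972 CPM against 611 and 608 CPM (−0.65 ± 0.37, adjusted p = 0.159). Pou5f1 (OCT4) fell from 551 and 605 CPM to 269 CPM in both tod-PGCLC libraries (−1.10 ± 0.16, adjusted p = 3.06e-04), a fold close to the limit that against tc;Sf1ESCs became −0.91. Sox2 and Nanog stayed under the fold limit, with replicates close to each other in both groups.

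Fgf4, the growth factor of ES cells, fell from 315 and 308 CPM to 101 and 68.9 CPM (−1.87 ± 0.36, adjusted p = 0.00177). L1td1, an RNA-binding protein of pluripotent cells, fell from 632 and 561 CPM to 217 and 174 CPM (−1.61 ± 0.11, adjusted p = 5.51e-06). Tdgf1 (Cripto), the Nodal co-receptor, fell from 760 and 779 CPM to 412 and 233 CPM (−1.25 ± 0.35, adjusted p = 0.0115), a call that was lost without replicate 2 of tcESC (adjusted p = 0.0513) and without replicate 2 of tod-PGCLC (−0.90). Dppa4, a chromatin protein of pluripotent and germ cells, was the member called higher, at 93.3 and 95.3 CPM against 230 and 212 CPM (1.23 ± 0.26, adjusted p = 0.00302). Its partner Dppa2 was at 53.0 and 50.2 CPM against 97.0 and 87.5 CPM (0.84 ± 0.09, adjusted p = 5.07e-05), under the fold limit.

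The other core genes differed by less than the fold limit. Lin28a, which blocks let-7 maturation and favours PGC formation, was at 170 and 162 CPM against 234 and 314 CPM, and Utf1, a chromatin factor of the epiblast, at 131 and 143 CPM against 268 and 240 CPM (0.89 ± 0.30, adjusted p = 0.0295). Sall4, a zinc finger factor shared by ES and germ cells, was at 362 and 356 CPM against 264 and 294 CPM. Dppa5a, an RNA-binding protein of the pluripotent state, was at 1258 and 1372 CPM against 1591 and 1505 CPM, and Gdf3, a TGF-beta family ligand, at 117 and 129 CPM against 75.8 and 75.4 CPM.

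Among the naive genes, Klf4 fell from 491 and 479 CPM to 64.5 and 56.3 CPM (−3.01 ± 0.08, adjusted p = 4.78e-08). Tbx3 fell from 391 and 382 CPM to 40.9 and 32.8 CPM (−3.39 ± 0.13, adjusted p = 2.74e-07). Socs3, a direct feedback target of LIF and STAT3, fell from 146 CPM in both tcESC libraries to 27.7 and 22.3 CPM (−2.55 ± 0.13, adjusted p = 9.33e-07), and Tfcp2l1, another target of that pathway, from 1568 and 1451 CPM to 295 and 250 CPM (−2.47 ± 0.13, adjusted p = 1.43e-06). Klf4 and Tbx3 are likewise known as genes that LIF and the 2 inhibitors hold up in ES cells. Each of the 4 was also lower against tc;Sf1ESCs, by −2.32, −3.01, −2.58 and −2.43 for Klf4, Tbx3, Socs3 and Tfcp2l1.

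Of the other 10 naive genes, 2 were called higher and 8 were not called. Zfp42 (REX1), whose loss marks exit from the naive state, was at 146 and 151 CPM in tcESCs and at 242 and 237 CPM in tod-PGCLCs (0.68 ± 0.08, adjusted p = 7.67e-05). Klf2 was at 292 and 313 CPM against 217 and 220 CPM and was not called, and Klf5 at 151 and 150 CPM against 133 and 111 CPM. Esrrb, an orphan receptor downstream of GSK3 inhibition, was at 914 and 895 CPM against 475 and 444 CPM (−0.98 ± 0.23, adjusted p = 0.00510), just short of the fold limit, which it passed without either tcESC library (−1.02 and −1.04) or replicate 1 of tod-PGCLC (−1.03).

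Nr5a2, an orphan receptor that can stand in for OCT4, was at 179 and 175 CPM against 102 and 98.3 CPM, and Nr0b1 (DAX1) at 118 and 130 CPM against 83.5 and 75.8 CPM, both under the fold limit. Gbx2, a homeobox target of STAT3, was at 9.43 and 9.16 CPM against 5.38 and 6.96 CPM, and Fbxo15, an F-box target of OCT4, at 239 and 250 CPM against 218 and 169 CPM. Tcl1, an AKT co-activator, and Pecam1, a surface antigen of ES cells and PGCs, were called higher at 1.02 ± 0.29 and 1.04 ± 0.38. Both were close to the limit and lost the call without any of several single libraries: Tcl1 gave 0.93 and 0.68 without replicate 1 of tcESC and of tod-PGCLC and an adjusted p of 0.0829 without replicate 2 of tcESC, and Pecam1 gave 0.87 to 1.19 over the 4 omissions, none of them called. Against tc;Sf1ESCs, Tcl1 turned to −0.71 (adjusted p = 0.0501).

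Formative and primed epiblast genes, which mark the state through which epiblast-like cells pass, were higher on the whole. Of 16 members, all with mean counts above 10 in both groups, 8 were called higher (50%, against 18.7% of all genes), 2 lower and 6 were not called, and the median was 1.45. Otx2, a homeobox factor of the primed epiblast that restrains PGC entry, rose from 2.99 and 2.75 CPM to 73.9 and 61.6 CPM (4.56 ± 0.17, adjusted p = 2.87e-07). Fgf5, the classical marker of the post-implantation epiblast, rose from 0.786 and 0.583 CPM to 7.67 and 13.5 CPM (3.96 ± 0.37, adjusted p = 3.01e-05). Wnt8a, a WNT ligand of the posterior epiblast, rose from 0.432 and 0.712 CPM to 6.92 and 13.7 CPM (4.13 ± 0.41, adjusted p = 3.85e-05).

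Pou3f1 (OCT6), a POU factor of the formative epiblast, rose from 5.50 and 5.60 CPM to 25.9 and 27.0 CPM (2.25 ± 0.15, adjusted p = 4.29e-06), and Tcf15, a helix-loop-helix factor of primed cells, from 3.58 and 3.89 CPM to 15.5 and 19.3 CPM (2.22 ± 0.17, adjusted p = 8.44e-06). Foxd3, a forkhead factor of the epiblast, fell from 46.4 and 46.5 CPM to 13.5 and 8.91 CPM (−2.05 ± 0.18, adjusted p = 1.92e-05). Wnt3, the WNT ligand that makes epiblast cells competent for PGC fate, was at 0.196 and 0.518 CPM against 0.719 and 1.24 CPM (1.40 ± 0.65, adjusted p = 0.0900). Epiblast and germ cell transcripts were thus raised in the same sorted libraries, and whether they lay in the same cells cannot be told apart in bulk.

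**Figure D3:**
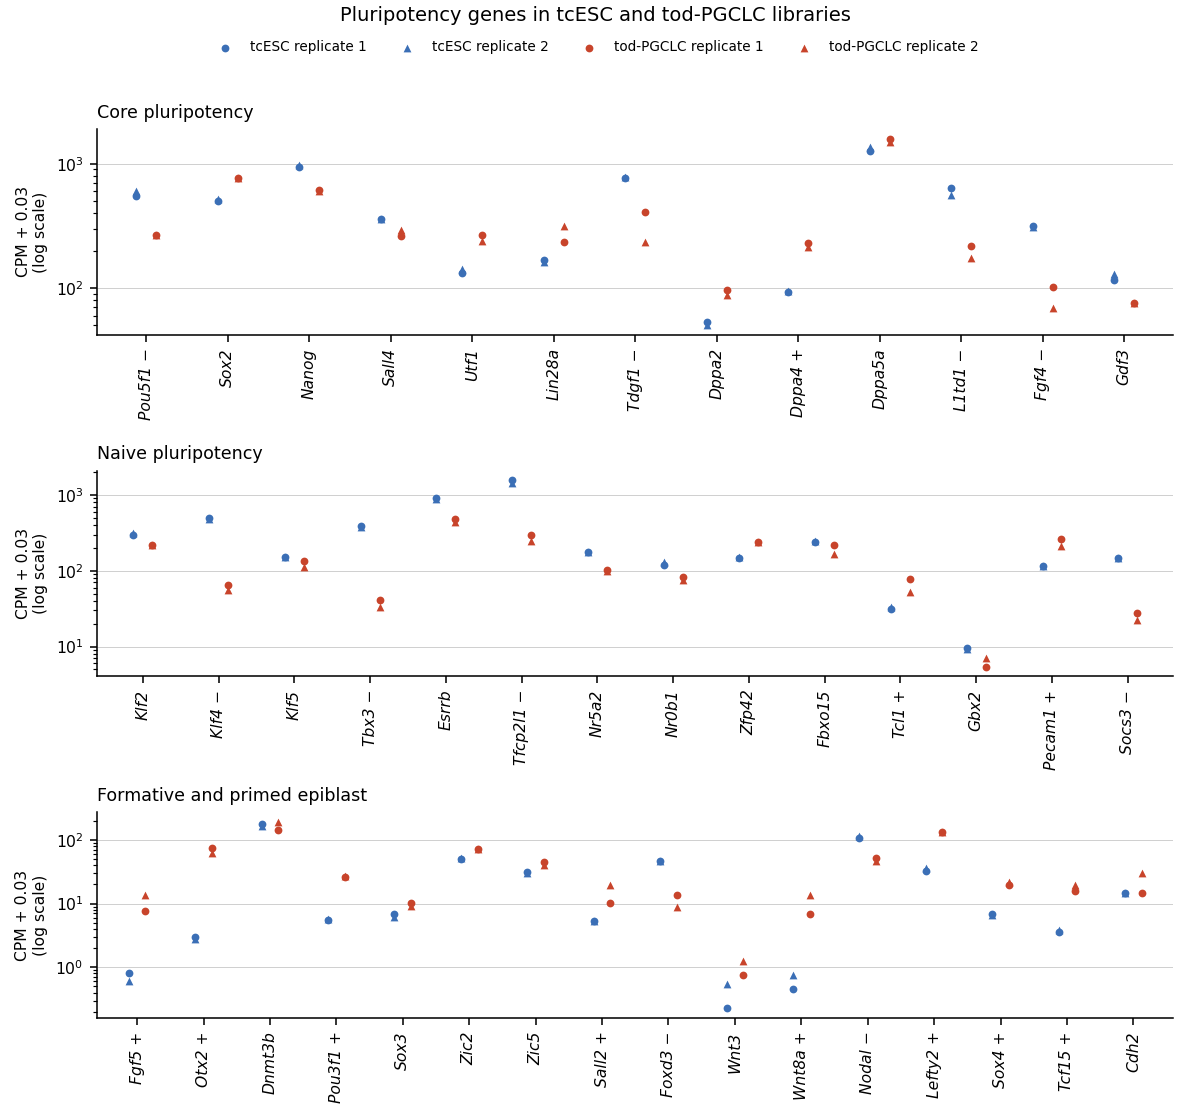
CPM (log scale, with a small constant added) of core, naive, and formative and primed pluripotency genes in each library, with tcESCs in blue and tod-PGCLCs in red; plus and minus mark calls as before. Sox2 and Zfp42 sit slightly higher in red, Klf4, Tbx3 and Tfcp2l1 sharply lower, and Otx2 and Fgf5 sharply higher.

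The somatic lists were examined because the germ cell-like cells had been cultured in contact with testicular somatic-like cells and could also have held cells of other fates. Among genes of gonadal soma, Sox9, Wt1, Dmrt1 and Inha rose and Inhbb and Zfpm2 fell, while 15 members were too low to be tested. Of 29 gonadal soma members, 5 were called higher, 2 lower (18.7% and 11.3% among all genes), 7 were not called and 15 were not tested, and 11 had at most 3 reads in each tod-PGCLC library, 4 of them none at all. Their summed level was 45.7 and 49.6 CPM in tcESCs, 133 and 156 CPM in tod-PGCLCs and 599 and 638 CPM in SCLCs.

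Dmrt1, a sex determination factor expressed both in Sertoli and in germ cells, made up most of the sum in tod-PGCLCs only. It was at 13.0 and 14.6 CPM in tcESCs, 94.0 and 115 CPM in tod-PGCLCs and 37.6 and 14.2 CPM in SCLCs (tod-PGCLC against tcESC 2.92 ± 0.36, adjusted p = 1.43e-04). The Sertoli factor Sox9 was at 0.0786 and 0.259 CPM in tcESCs, at 2.33 and 4.68 CPM in tod-PGCLCs and at 8.19 and 4.76 CPM in SCLCs (4.28 ± 0.74, adjusted p = 9.36e-04), and without replicate 2 of tcESC its log2 fold change was 5.35. Wt1, a zinc finger factor of the urogenital ridge and other mesoderm, was at 0.589 and 0.615 CPM, 11.4 and 10.4 CPM, and 2.39 and 0.842 CPM (4.16 ± 0.42, adjusted p = 4.05e-05). Wt1 and Dmrt1 thus had higher values in both tod-PGCLC libraries than in either SCLC library, a difference for which no test is given.

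Other gonadal genes stood far below their SCLC level. Gata4, which marks the somatic gonad and was at 438 and 459 CPM in SCLCs, was at 2.94 and 5.39 CPM in tod-PGCLCs, 0.929% of the SCLC level. Nr5a1, the gene of the transgene in the partner cells, was at 13.6 and 19.6 CPM in SCLCs and at 0.205 and 0.177 CPM in tod-PGCLCs, 1.16% of the SCLC level. Emx2, a homeobox gene of the gonadal ridge, was at 10.6 and 15.7 CPM against 0.103 and 0.0355 CPM. These 3 genes were picked after their values were seen, from the list that also holds Sox9, Wt1 and Dmrt1. The SCLCs were sorted for CFP at day 12, whereas the partner cells in the organoids were day 8 tc;Sf1TesLCs, which were not analysed here.

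The other called members were low. Inha, the inhibin alpha subunit, rose from 0.196 and 0.162 CPM to 1.20 and 1.24 CPM (2.75 ± 0.34, adjusted p = 1.40e-04). Inhbb, the inhibin beta B subunit, fell from 13.4 and 15.4 CPM to 3.32 and 2.09 CPM (−2.41 ± 0.37, adjusted p = 4.48e-04), although against tc;Sf1ESCs, at 0.818 and 1.14 CPM, it was higher (1.46). Zfpm2 (FOG2), the cofactor of GATA4, fell from 2.67 and 2.36 CPM to 0.856 and 1.14 CPM (−1.33 ± 0.27, adjusted p = 0.00230).

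Primitive streak and mesendoderm genes split in both directions. Of 19 members, 8 were called higher, 5 lower (18.7% and 11.3% among all genes), 3 were not called and 3 were not tested, with a median of 0.36, and 5 of the 16 tested had a mean count above 10 in 1 group only. T (Brachyury), which is also needed at the onset of PGC fate, was at 1.45 and 1.52 CPM in tcESCs and at 9.79 and 25.4 CPM in tod-PGCLCs (3.56 ± 0.45, adjusted p = 1.60e-04). The tc;Sf1ESCs held 8.85 and 10.5 CPM of T, and against them it was not called (0.86, adjusted p = 0.0728). Without replicate 2 of tod-PGCLC the log2 fold change of T over tcESCs was 2.71.

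Foxa2, Lhx1 and Fgf8 were higher in the second tod-PGCLC library than in the first. Foxa2, a forkhead factor of endoderm, was at 0.196 and 0.453 CPM in tcESCs and at 2.57 and 6.74 CPM in tod-PGCLCs (3.77 ± 0.62, adjusted p = 6.95e-04), and its log2 fold change was 2.92 without that library and 4.48 without replicate 2 of tcESC. Lhx1, a LIM homeobox factor of the anterior streak, had 1 read in each tcESC library and 135 and 447 reads in tod-PGCLCs, a ratio of 286 (95% exact interval 78.7 to 2364, adjusted p = 1.16e-04), which was 130 without replicate 2 of tod-PGCLC. Fgf8, the streak growth factor, was at 0.471 and 0.324 CPM against 1.51 and 5.43 CPM (3.13 ± 0.66, adjusted p = 0.00292), and its log2 fold change was 1.93 without replicate 2 of tod-PGCLC.

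Hoxb1, the first of the HOXB genes to be switched on in the streak, had no read in either tcESC library and was at 0.787 and 2.45 CPM in tod-PGCLCs, at least 15.1-fold higher when 3 reads per library are taken as the floor (adjusted p = 0.00139), or 7.33-fold without replicate 2 of tod-PGCLC. Evx1, a posterior streak homeobox gene, went the other way, from 4.79 and 4.24 CPM to 0.274 and 0.497 CPM (−3.54 ± 0.39, adjusted p = 7.27e-05). The streak genes were thus neither all high nor all low.

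Visceral and primitive endoderm genes included several that rose, such as Lrp2, Cubn and Gata6, while their summed level remained a small share of that in SCLCs. Of 17 members, 9 were called higher, 1 lower (18.7% and 11.3% among all genes), 4 were not called and 3 were not tested, with a median of 1.78, and 3 of the 14 tested had a mean count above 10 in 1 group only. Their summed level was 37.8 and 34.1 CPM in tcESCs, 112 and 116 CPM in tod-PGCLCs and 4715 and 7546 CPM in SCLCs, so that tod-PGCLCs held 1.86% of the SCLC sum. Whether SCLC-type RNA in the sort contributed to the increase was not tested.

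Lrp2 (megalin), an endocytic receptor, accounted for most of that sum in tod-PGCLCs, rising from 14.2 and 11.8 CPM to 65.9 and 61.3 CPM (2.30 ± 0.20, adjusted p = 1.81e-05). Its partner Cubn rose from 0.471 and 0.518 CPM to 5.82 and 6.88 CPM (3.66 ± 0.56, adjusted p = 4.60e-04), which was 0.378% of the SCLC level. Gata6, the master factor of primitive endoderm, rose from 0.196 and 0.809 CPM to 4.90 and 5.36 CPM (3.26 ± 0.32, adjusted p = 3.71e-05), or 2.62% of the SCLC level, and gave 4.62 without replicate 2 of tcESC and 2.60 without replicate 1.

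Afp (alpha-fetoprotein) had 0 and 0.194 CPM in tcESCs and 2.33 and 1.24 CPM in tod-PGCLCs (4.02 ± 0.89, adjusted p = 0.00375), and its log2 fold change was 3.12 without replicate 1 of tcESC and 8.57 without replicate 2. Foxa1, a forkhead factor of endoderm, was at 0.314 and 0.162 CPM against 2.57 and 5.64 CPM (4.12 ± 0.55, adjusted p = 2.11e-04), above the 1.31 and 2.05 CPM of SCLCs, and gave 3.44 without replicate 2 of tod-PGCLC. Apob, an apolipoprotein, was at 1.89 and 1.20 CPM against 6.85 and 3.90 CPM (1.82 ± 0.63, adjusted p = 0.0313), a call that was lost without either tcESC library (adjusted p = 0.0806 and 0.182) and without replicate 1 of tod-PGCLC (adjusted p = 0.188).

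Among 12 trophectoderm genes, 6 were called higher, 1 lower (all genes, 18.7% and 11.3%), 4 were not called and 1 was not tested, and the members that rose included keratins, which other epithelia also express. Krt19 rose from 1.34 and 1.46 CPM to 30.1 and 31.4 CPM (4.45 ± 0.15, adjusted p = 1.80e-07), Krt18 from 22.4 and 30.3 CPM to 82.8 and 84.7 CPM (1.67 ± 0.15, adjusted p = 2.11e-05) and Krt7 from 4.13 and 5.12 CPM to 16.6 and 15.9 CPM (1.81 ± 0.32, adjusted p = 0.00101). Hand1, a helix-loop-helix factor of trophoblast and mesoderm, rose from 0.0786 and 0.130 CPM to 1.37 and 1.74 CPM (3.81 ± 0.50, adjusted p = 1.93e-04), and the X-linked homeobox gene Esx1 rose from 2.95 and 3.21 CPM to 8.59 and 10.6 CPM. Tfap2a, a relative of Tfap2c, fell from 1.69 and 1.62 CPM to 0.445 and 0.710 CPM (−1.51 ± 0.32, adjusted p = 0.00296). The summed level of the list was 201 and 232 CPM in tod-PGCLCs and 962 and 1258 CPM in SCLCs.

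Of 16 mesenchyme and matrix genes, 8 were called higher, 2 lower (all genes, 18.7% and 11.3%) and 6 were not called, and 4 of the 16 had a mean count above 10 in 1 group only. Acta2, smooth muscle actin, had 1 read in each tcESC library and 314 and 339 reads in tod-PGCLCs, a ratio of 321 (95% exact interval 88.4 to 2652, adjusted p = 4.79e-06). Col1a2, a fibrillar collagen chain, rose from 0.393 and 0.324 CPM to 23.6 and 21.9 CPM (5.98 ± 0.59, adjusted p = 3.94e-05), and Col3a1 had 2 reads in each tcESC library and 77 and 73 in tod-PGCLCs, a ratio of 36.8 (95% exact interval 14.1 to 137). Tagln, an actin-binding protein of smooth muscle, rose from 1.41 and 1.55 CPM to 9.93 and 14.5 CPM (3.03 ± 0.23, adjusted p = 8.02e-06), and Zeb2, a repressor of epithelial genes, from 0.354 and 0.648 CPM to 3.32 and 5.29 CPM (3.06 ± 0.42, adjusted p = 2.50e-04).

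Postn, a matrix protein, had 1 and 0 reads in tcESCs and 61 and 36 in tod-PGCLCs, a ratio of 95.2 (95% exact interval 16.7 to 3799), which was 43.0 without replicate 2 of tcESC. The summed level of the mesenchyme list was nevertheless lower in tod-PGCLCs, at 2173 and 2145 CPM, than in tcESCs, at 3611 and 3386 CPM, and it was 5.44% of the SCLC sum. Col1a2 was at 69.8 and 25.5 CPM and Acta2 at 21.1 and 15.3 CPM in SCLCs, the same order as in tod-PGCLCs.

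Neural genes gave 4 called higher and 2 lower of 12 (all genes, 18.7% and 11.3%), with 3 not called and 3 not tested. Olig2, an oligodendrocyte and motor neuron factor, was at 90.6 and 92.1 CPM in tcESCs and at 0.0685 and 0.142 CPM in tod-PGCLCs (−9.71 ± 0.29, adjusted p = 9.23e-08), whereas tc;Sf1ESCs held 9.55 and 9.06 CPM. Tubb3, a neuronal tubulin, fell from 71.7 and 75.1 CPM to 30.2 and 29.0 CPM (−1.31 ± 0.08, adjusted p = 2.10e-06). Pax6 rose from 0.393 and 0.356 CPM to 7.19 and 5.68 CPM (4.09 ± 0.43, adjusted p = 5.40e-05), and Map2, a microtubule protein, from 4.16 and 3.11 CPM to 12.8 and 11.4 CPM (1.74 ± 0.22, adjusted p = 1.50e-04).

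Pax3, a paired box factor of the neural plate and somites, had 2 and 1 reads in tcESCs and 27 and 58 in tod-PGCLCs, a ratio of 27.8 (95% exact interval 9.20 to 138), which was 17.4 without replicate 2 of tod-PGCLC and 45.7 without replicate 1 of tcESC. Dcx (doublecortin) had no read in tcESCs and was at 1.71 and 0.355 CPM in tod-PGCLCs, at least 9.61-fold higher (3.30-fold without replicate 1 of tod-PGCLC), and its call was lost without replicate 2 of tcESC (adjusted p = 0.0533). Of 7 endothelium and blood genes, 2 were called higher (all genes, 18.7%), 3 were not called and 2 were not tested. Tie1, an endothelial receptor also seen in haematopoietic cells, had 2 reads in each tcESC library and 165 and 101 in tod-PGCLCs, a ratio of 65.3 (95% exact interval 25.2 to 241, adjusted p = 7.13e-05), while the blood marker Ptprc, chosen after its values were seen, had no read in either tod-PGCLC library.

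**Figure D4:**
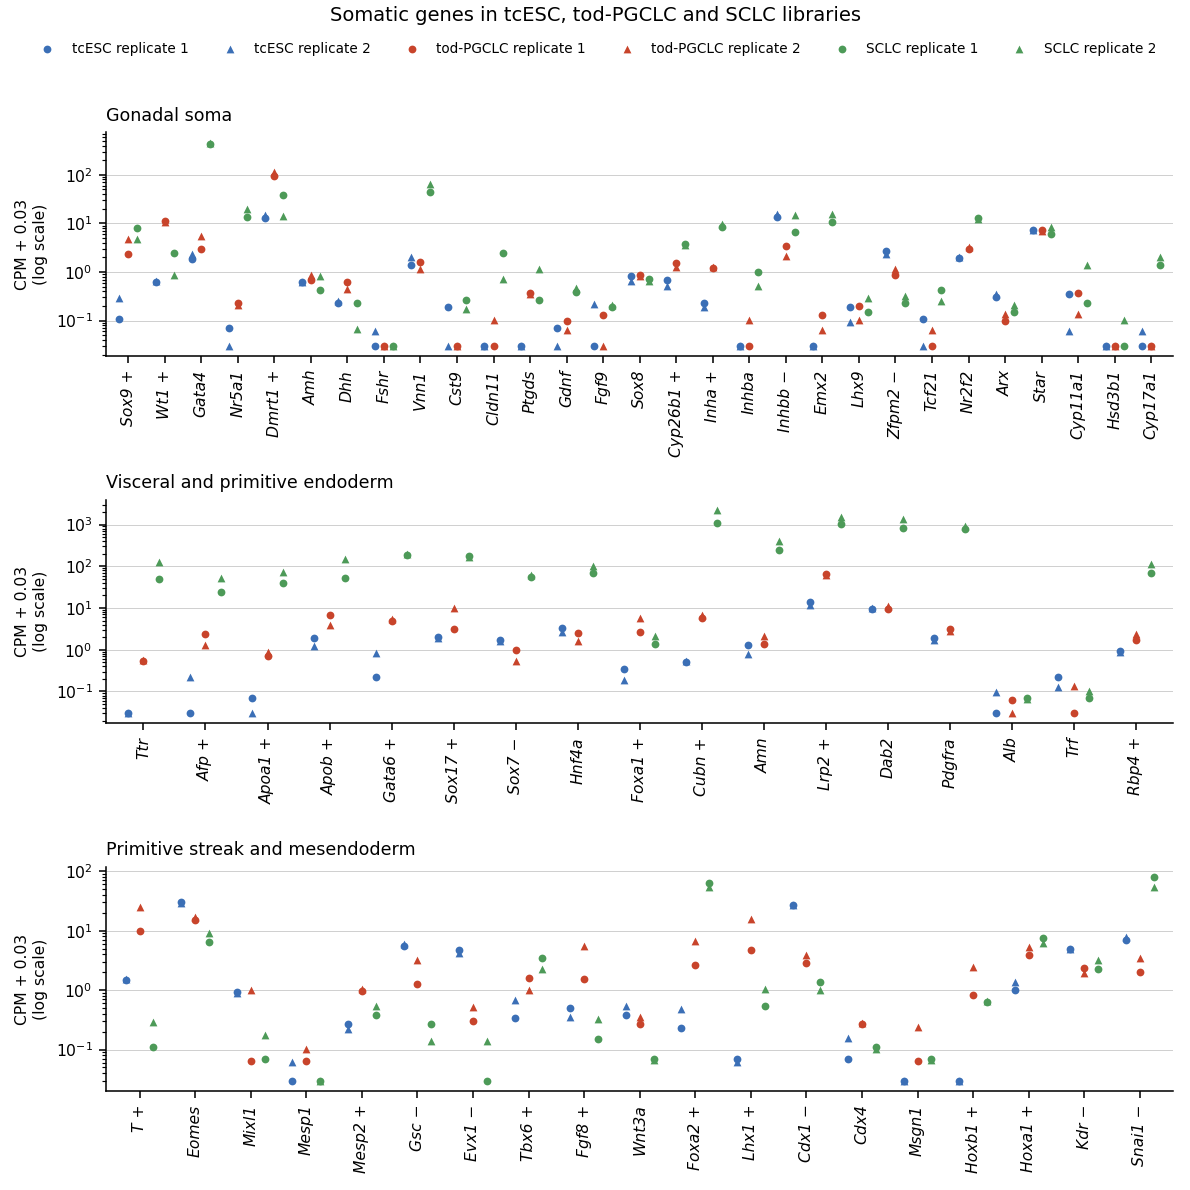
CPM (log scale, with a small constant added) of gonadal soma, visceral and primitive endoderm, and primitive streak genes in tcESCs (blue), tod-PGCLCs (red) and SCLCs (green), each library drawn. Gata4, Nr5a1, Cubn and Ttr are far higher in green than in red, although Cubn is also higher in red than in blue, whereas Dmrt1, Wt1 and T are highest in red.

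Among genes of DNA methylation and demethylation, Uhrf1, Zfp57, Tet2 and Tdg fell in tod-PGCLCs and Dnmt3a rose. Of 14 members, 1 was called higher and 4 lower (18.7% and 11.3% among all genes), 8 were not called and 1 was not tested, and the median was −0.64. The list summed to 6491 and 6345 CPM in tcESCs, 3732 and 3514 CPM in tod-PGCLCs and 1853 and 1760 CPM in SCLCs. A lower sum than in tcESCs was thus not particular to tod-PGCLCs. Uhrf1, which brings DNMT1 to replicating DNA and whose loss goes with passive demethylation in PGCs, fell from 787 and 776 CPM to 302 and 281 CPM (−1.42 ± 0.09, adjusted p = 3.22e-06). Dnmt1, the maintenance enzyme itself, was at 598 and 561 CPM against 377 and 394 CPM (−0.59 ± 0.07, adjusted p = 1.21e-04), under the fold limit.

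The de novo enzymes diverged. Dnmt3a rose from 29.9 and 27.4 CPM to 152 and 132 CPM (2.31 ± 0.15, adjusted p = 4.14e-06). Dnmt3b was at 177 and 168 CPM against 145 and 193 CPM (−0.03 ± 0.13, adjusted p = 0.852), and their cofactor Dnmt3l at 247 and 256 CPM against 171 and 136 CPM (−0.71 ± 0.28, adjusted p = 0.0502). In vivo, PGCs are known to repress these enzymes. The high Dnmt3a and the kept Dnmt3b are given here as levels only, and their cause was not tested.

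Zfp57, the zinc finger protein that protects imprints, fell from 951 and 928 CPM to 192 and 172 CPM (−2.37 ± 0.11, adjusted p = 6.31e-07), while its partner Trim28 was at 2491 and 2551 CPM against 1628 and 1609 CPM (−0.64 ± 0.06), under the fold limit. Tet2, a dioxygenase that oxidises methylcytosine, fell from 341 and 286 CPM to 113 and 89.1 CPM (−1.63 ± 0.17, adjusted p = 4.46e-05), but tc;Sf1ESCs stood at 92.8 and 92.6 CPM, and against them the log2 difference was 0.12 (adjusted p = 0.532). Its relatives Tet1 (746 and 675 against 566 and 423 CPM) and Tet3 (19.9 and 18.9 against 26.7 and 28.2 CPM) were not called.

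Of the glycosylase genes Tdg and Mbd4 and the deaminase gene Apobec1, Tdg alone was called. Tdg, the thymine DNA glycosylase, fell from 32.6 and 32.2 CPM to 14.7 and 16.4 CPM (−1.06 ± 0.12, adjusted p = 6.59e-05), close to the limit, and to −0.98 without replicate 1 of tod-PGCLC. Mbd4, another glycosylase, was at 62.2 and 55.9 CPM against 36.1 and 33.9 CPM, under the fold limit. Apobec1, a cytidine deaminase, was at 7.58 and 8.64 CPM against 8.80 and 7.03 CPM and was not called.

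Polycomb genes were called about as often as genes overall. Of 27 members, 4 were called higher (14.8%, against 18.7% of all genes), 3 lower (11.1%, against 11.3%) and 20 were not called, with a median of −0.28. Phf19, a PRC2 subunit that reads H3K36 methylation, rose from 4.40 and 4.95 CPM to 56.1 and 69.6 CPM (3.74 ± 0.18, adjusted p = 7.21e-07). Ezh1, the alternative methyltransferase of PRC2, rose from 29.0 and 31.6 CPM to 142 and 124 CPM (2.13 ± 0.11, adjusted p = 9.67e-07), while the core PRC2 subunit Eed fell from 292 and 303 CPM to 121 and 120 CPM (−1.31 ± 0.07, adjusted p = 1.14e-06).

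In PRC1, Pcgf5 rose from 11.3 and 10.3 CPM to 26.7 and 26.2 CPM (1.29 ± 0.09, adjusted p = 5.45e-06) and Yaf2, a RING1 partner, from 8.72 and 9.32 CPM to 25.1 and 24.7 CPM (1.46 ± 0.12, adjusted p = 1.17e-05). Kdm2b, which brings PRC1 to CpG islands, fell from 148 and 141 CPM to 58.4 and 57.2 CPM (−1.32 ± 0.06, adjusted p = 6.40e-07). Of 18 histone lysine and arginine enzymes, 2 were called lower (11.1%, against 11.3% of all genes), none higher and 16 were not called. Kdm3a, an H3K9 demethylase on chromosome 6, fell from 411 and 413 CPM to 203 and 190 CPM (−1.07 ± 0.13, adjusted p = 1.37e-04), and Prmt5, the arginine methyltransferase that partners PRDM1 in germ cells, from 296 and 300 CPM to 124 and 164 CPM (−1.05 ± 0.13, adjusted p = 1.12e-04). Both stood at the fold limit: Prmt5 gave −0.86 without replicate 1 of tod-PGCLC, and after subtraction of the chromosome median Kdm3a gave −0.75.

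Imprinted genes, expressed from 1 parental copy, changed in both directions. Of 29 members, 14 were called higher (48.3%, against 18.7% of all genes), 7 lower (24.1%, against 11.3%) and 8 were not called, with a median of 0.95, and 2 had a mean count above 10 in 1 group only. Peg3, a paternally expressed zinc finger gene, rose from 4.16 and 3.66 CPM to 334 and 365 CPM (6.49 ± 0.20, adjusted p = 1.20e-07). H19, a maternally expressed long RNA, rose from 23.5 and 31.7 CPM to 726 and 716 CPM (4.70 ± 0.23, adjusted p = 8.81e-07), and its paternally expressed neighbour Igf2, a fetal growth factor, from 13.0 and 14.7 CPM to 90.04 and 99.2 CPM (2.77 ± 0.19, adjusted p = 4.85e-06).

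Cdkn1c (p57), a maternally expressed inhibitor of the cell cycle, rose from 3.81 and 4.89 CPM to 38.6 and 48.3 CPM (3.31 ± 0.35, adjusted p = 5.62e-05). Zim1, next to Peg3, was at 0.236 and 0.162 CPM against 1.71 and 1.06 CPM (2.80 ± 0.42, adjusted p = 4.50e-04), and Magel2, of the Prader-Willi region, at 0.432 and 0.583 CPM against 2.19 and 4.61 CPM (2.72 ± 0.47, adjusted p = 9.67e-04), or 2.09 without replicate 2 of tod-PGCLC. The 2 ES cell references differed among themselves in these genes: tc;Sf1ESCs held 62.2 and 63.7 CPM of Peg3 and 0.546 and 0.330 CPM of H19. All 6 genes were higher in tod-PGCLCs than in either ES cell reference. The list summed to 2148 and 2100 CPM in tcESCs, 3248 and 3655 CPM in tod-PGCLCs and 9378 and 12619 CPM in SCLCs. A higher sum than in tcESCs was thus not particular to tod-PGCLCs. Of the 7 genes called lower, which were chosen after their values were seen, Kcnq1ot1, a paternally expressed antisense RNA whose counts are uncertain where it overlaps Kcnq1, fell from 52.3 and 56.4 CPM to 14.04 and 14.3 CPM (−1.94 ± 0.15, adjusted p = 1.03e-05), and Plagl1, a zinc finger gene, from 141 and 137 CPM to 39.2 and 47.4 CPM (−1.68 ± 0.18, adjusted p = 6.73e-05). The other lower members (Mest, Mirg, Rtl1, Nespas and Mcts2) lay between −1.64 and −1.04. The counts do not separate the parental copies, so no imprint state follows from them.

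Pathway readouts differed in both directions as well. Of 14 feedback genes of MAPK signalling, which the inhibitor in the ES cell medium suppresses, 5 were called higher and 2 lower (all genes, 18.7% and 11.3%). Egr1, an immediate early gene, rose from 0.825 and 0.809 CPM to 36.9 and 59.0 CPM (5.87 ± 0.29, adjusted p = 8.68e-07). The ERK phosphatases Dusp4 (2.75 and 2.49 against 63.6 and 67.4 CPM) and Dusp6 (11.04 and 11.5 against 56.8 and 60.9 CPM), the receptor antagonist Spry1 (11.6 and 11.1 against 29.3 and 29.0 CPM) and the early response gene Ier3 (4.09 and 4.69 against 17.8 and 14.4 CPM) were also called higher. Myc, which LIF and WNT hold up in ES cells, fell from 21.2 and 21.4 CPM to 6.23 and 6.49 CPM (−1.74 ± 0.38, adjusted p = 0.00340).

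Of 11 WNT targets, 5 were called higher and 2 lower (18.7% and 11.3% among all genes), in 2 groups that both had CHIR99021 in the medium. Against tc;Sf1ESCs, 3 were called higher and 5 lower, so the balance turned with the ES cell reference. Lef1, the DNA-binding partner of beta-catenin, rose from 1.61 and 1.81 CPM to 58.9 and 45.9 CPM (4.93 ± 0.28, adjusted p = 1.82e-06), but tc;Sf1ESCs were at 35.5 and 34.3 CPM and the difference from them was 0.59. Nkd1 and Nkd2, feedback inhibitors of the pathway, were called higher at 2.03 ± 0.25 and 1.74 ± 0.35. Sp5, a direct target, fell from 20.3 and 20.1 CPM to 6.30 and 12.0 CPM (−1.15 ± 0.24, adjusted p = 0.00292; −0.76 without replicate 1 of tod-PGCLC). Lgr5, an R-spondin receptor, was at 0.157 and 0.162 CPM against 0.479 and 3.51 CPM, and its call rested on replicate 2 of tod-PGCLC, without which the log2 fold change was 1.56 (adjusted p = 0.0734), and was also lost without either tcESC library (adjusted p = 0.0865 and 0.0959).

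Of 10 BMP targets, 4 were called higher and 2 lower, beside 18.7% and 11.3% of all genes. Msx2 rose from 1.14 and 1.17 CPM to 4.07 and 4.68 CPM (1.92 ± 0.19, adjusted p = 4.31e-05), and the inhibitory Smad6 from 4.32 and 4.53 CPM to 12.3 and 9.58 CPM, whereas the inhibitory Smad7 fell from 91.2 and 94.7 CPM to 38.9 and 40.1 CPM (−1.23 ± 0.08, adjusted p = 3.34e-06) and Gata2 from 20.3 and 24.7 CPM to 6.81 and 7.31 CPM (−1.67 ± 0.37, adjusted p = 0.00394). Smad9, a BMP-activated SMAD, had 3 reads in each tcESC library and 63 and 33 in tod-PGCLCs, a ratio of 15.7 (95% exact interval 6.96 to 43.9). Msx1 was at 0.471 and 0.356 CPM against 0.822 and 1.24 CPM (1.32 ± 0.35, adjusted p = 0.00996). The calls of Smad9 and Msx1 were not stable: Smad9 lost its call without either tcESC library (adjusted p = 0.0810 and 0.102) and without replicate 1 of tod-PGCLC (adjusted p = 0.0812), and Msx1 without replicate 2 of tcESC (adjusted p = 0.0889) and replicate 2 of tod-PGCLC (adjusted p = 0.0651). Against tc;Sf1ESCs, Msx1 turned to −1.32 (adjusted p = 0.00297).

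Of 20 cell cycle genes, 1 was called higher, 3 lower and 16 were not called, and the share called lower (15.0%) was near that of all genes (11.3%). The D cyclins switched: Ccnd1 fell from 167 and 158 CPM to 42.6 and 26.5 CPM (−2.23 ± 0.18, adjusted p = 1.05e-05) and Ccnd2 rose from 2.95 and 3.17 CPM to 18.7 and 18.8 CPM (2.61 ± 0.10, adjusted p = 2.93e-07). The kinase inhibitors Cdkn1a (p21, 281 and 288 against 112 and 95.5 CPM) and Cdkn1b (p27, 52.2 and 51.6 against 18.0 and 16.4 CPM) fell.

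Genes induced by tissue dissociation and stress also differed between the groups, of which only the tod-PGCLCs had been dissociated from a tissue-like culture and sorted. Of 20 members, 9 were called higher, 1 lower (18.7% and 11.3% among all genes), 9 were not called and 1 was not tested. The summed level of the list was nevertheless lower in tod-PGCLCs, at 5676 and 5583 CPM, than in tcESCs, at 8628 and 8322 CPM. Beside Egr1, the AP-1 genes Fos (4.48 and 3.89 against 37.5 and 22.0 CPM), Fosb (0.746 and 0.842 against 9.11 and 7.03 CPM) and Jun (5.23 and 5.44 against 26.8 and 22.1 CPM) were called higher, as was Atf3 (0.629 and 0.777 against 3.73 and 3.69 CPM). The heat shock gene Hspa1b was lower (4.01 and 4.63 against 1.75 and 1.63 CPM), a call that was lost without replicate 2 of tcESC (adjusted p = 0.0514) or replicate 2 of tod-PGCLC (adjusted p = 0.0544). Egr1 belongs to the MAPK and to the stress list, and the part of handling in either was not tested.

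The largest fitted increases among protein-coding genes were Epsti1, Ifit1, Cer1, Car4, Aplnr and Gbp3, an order that depends on the fit where tcESCs had no read. Epsti1 and Ifit1, both induced by interferon, had no read in either tcESC library and were at 13.4 and 16.6 CPM and at 10.4 and 11.8 CPM in tod-PGCLCs, at least 140-fold and 103-fold higher. Gbp3, an interferon-induced GTPase, had 0 and 1 reads against 857 and 874, a ratio of 1699 (95% exact interval 305 to 67158), which was 932 without replicate 1 of tcESC. SCLCs held 6.96 and 7.76 CPM of Epsti1, 97.8 and 83.2 CPM of Ifit1 and 44.1 and 35.7 CPM of Gbp3.

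Cer1, a secreted antagonist of Nodal, BMP and WNT, had no read in tcESCs and was at 2.50 and 12.0 CPM in tod-PGCLCs, at least 67.2-fold higher, and Aplnr, the apelin receptor of nascent mesoderm, was at 2.397 and 10.2 CPM, at least 58.7-fold higher. Both were far higher in the second tod-PGCLC library than in the first, as were Lhx1 and Foxa2, and without it the bounds were 23.2-fold for Cer1 and 22.3-fold for Aplnr. Car4, a carbonic anhydrase, had 1 read in each tcESC library and 1172 and 2031 in tod-PGCLCs, a ratio of 1572 (95% exact interval 435 to 12988), and was at 81.7 and 125 CPM in SCLCs.

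The largest decreases were Ubd, Cd180, Trim12a, Olig2, Hoxc12 and Cst13. Ubd, a ubiquitin-like protein, was at 11.8 and 12.7 CPM in tcESCs and had no read in tod-PGCLCs, at least 117-fold lower. Cd180, a Toll-like receptor homologue, and Trim12a, a TRIM family gene in a cluster of close copies, were likewise without a read, at least 43.2-fold and 40.5-fold lower, and Cst13, a cystatin, at least 10.2-fold lower. Hoxc12 was at 6.01 and 6.73 CPM in tcESCs and had 1 and 0 reads in tod-PGCLCs. Ubd, Cd180, Trim12a and Hoxc12 were also present in tc;Sf1ESCs, at 18.5 and 17.6 CPM, 5.22 and 5.06 CPM, 4.91 and 4.95 CPM, and 11.3 and 10.9 CPM.

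The median fold changes of chromosomes 6 and 11 stood apart from those of the other autosomes. The median log2 fold change was −0.32 over the 766 tested genes of chromosome 6, of which 35.1% were positive, and 0.52 over the 1358 genes of chromosome 11, of which 77.0% were positive. The other 17 autosomes had medians from −0.10 (chromosome 17) to 0.16 (chromosome 14), and the X chromosome, with 627 genes, had 0.26. Each tod-PGCLC library showed the shifts by itself, at −0.30 and −0.28 for chromosome 6 and 0.45 and 0.48 for chromosome 11.

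The 2 shifts differed in which libraries carried them. On chromosome 6, tc;Sf1ESCs and SCLCs had medians of −0.32 and −0.34 over tcESCs, and tod-PGCLCs differed from tc;Sf1ESCs by −0.02, so the tcESC libraries were the ones that stood apart. On chromosome 11, tc;Sf1ESCs and SCLCs were at −0.02 over tcESCs, and the shift was carried by the tod-PGCLC libraries, at 0.47 over tc;Sf1ESCs and 0.52 over SCLCs. Chromosomes 8 and 16, at 0.48 and −0.45 in tc;Sf1ESCs and 0.54 and −0.50 in SCLCs, were at −0.05 and 0.01 in tod-PGCLCs. The cause of these medians was not tested.

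Several genes named above lie on the shifted chromosomes. Dppa3, Stra8, Nanog, Gdf3, Ret, Col1a2 and Ccnd2 are on chromosome 6, and Itgb3, Sox9, Lhx1, Hoxb1, Krt19, Socs3, Pecam1 and Ezh1 on chromosome 11. Of the genes on chromosome 11, 27.5% were called higher and 5.23% lower, beside the 18.7% and 11.3% over all genes. With each chromosome's median subtracted, 2977 genes were higher and 1856 lower, Pecam1 dropped to 0.52 and Kdm3a to −0.75, and Pou5f1 (−0.998), Sohlh2 (0.96) and Tcl1 (0.95) fell under the fold limit, while Esrrb passed it (−1.04). Large changes such as those of Stra8, Dppa3 and Socs3 were several times larger than the shift of their chromosome.

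**Figure D5:**
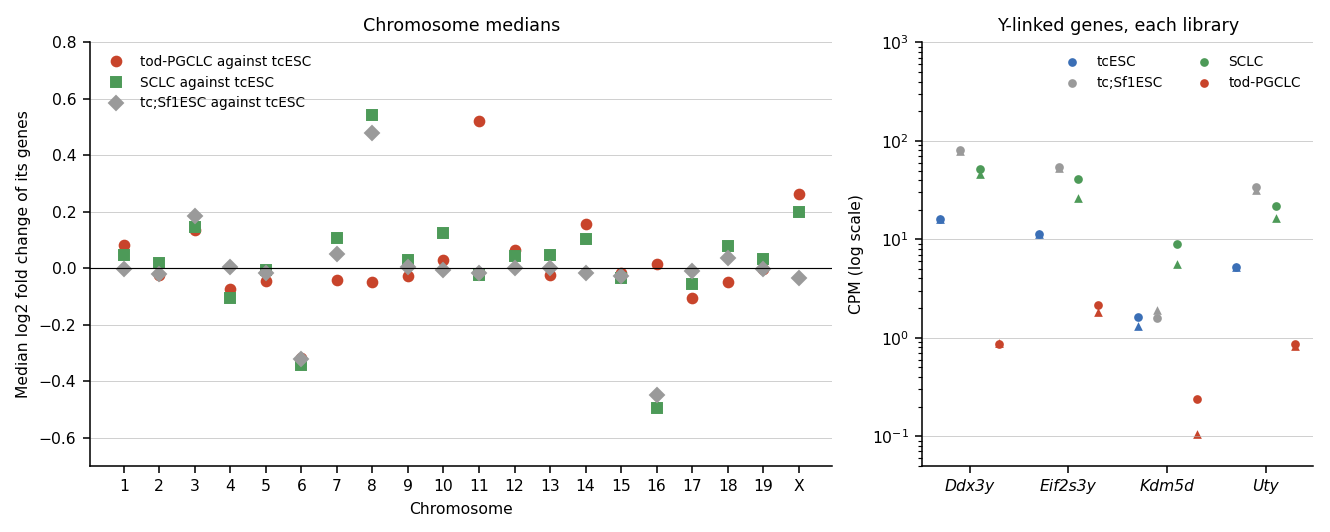
Left, median log2 fold change over tcESCs of the tested genes of each chromosome (x axis) in tod-PGCLCs, SCLCs and tc;Sf1ESCs; right, CPM (log scale) of 4 Y-linked genes, with replicate 1 as a circle and replicate 2 as a triangle. Chromosome 11 was shifted in tod-PGCLCs alone (0.52) and chromosome 6 in all 3 groups, and the Y-linked genes were lowest in tod-PGCLCs.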

How the data were processed

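RNA was extracted with a PicoPure kit, and poly-A, strand-specific paired-end libraries were sequenced. Per the labels, the authors trimmed reads (Trim Galore), aligned them to GRCm38 (STAR 2.4.0) and counted them per gene with HTSeq, and they deposited raw counts per library; the strand setting of the counting is not given in the sources used here. Reads that were not unique (20.5% to 27.5% over the 8 libraries) were not counted.

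From these counts, edgeR 4.0.16 (R 4.3.3) was run on the 4 groups together (8 libraries, TMM scaling, quasi-likelihood test), and p-values were adjusted by Benjamini-Hochberg over the 16473 genes whose mean count was above 10 in the 4 compared libraries. A call needed a fold over 2 and adjusted p under 0.05. CPM use the TMM-scaled library sizes. The floor was 3 counts per library, 0.107 CPM on average in tcESCs and 0.105 in tod-PGCLCs. In simulated counts, 96% of 200 planted log2 changes of 2 were called, with 1 false call among 15286 genes. The planted changes were balanced in direction and left most genes unchanged. In the real data 30% of genes were called, more of them higher than lower, so these rates may not carry over.

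Symbols came from GENCODE M21 for 45229 identifiers. Of 400 listed genes, 398 were matched. The members and lists were chosen with earlier results of these data known. Named were all members of the PGC specification, core and naive pluripotency and DNA methylation lists, up to 6 called members of each other list with the largest change (at least 1 CPM in the higher group, libraries not overlapping), genes the study names, and the 6 largest changes in each direction. Alternatives were DESeq2 1.42.0, other scalings, filters and references, a replicate block and the omission of each library.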

Additional observations from a re-analysis of the deposited data

How the results depend on the processing

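The count of called genes was 4947. It was 3151 (1088 lower) when the fold of 2 was itself tested (edgeR's glmTreat), and that test left 8 late germ cell, 3 spermatogonial stem cell, 2 core pluripotency, 6 visceral and primitive endoderm and 1 endothelium and blood genes, and 0 histone enzymes. It ended the call of 24 of 182 named genes. DESeq2 called 2835 genes higher and 1753 lower and ended 1 named call, Pecam1. Scaling by library totals moved the all-gene median to 0.11, with 3304 higher and 1660 lower, and left 0 histone enzymes called. Subtracting chromosome medians left 1. Leaving out each library gave 4501 to 4716 called genes, 1 to 2 endothelium and blood genes and 1 to 2 histone enzymes.

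With tc;Sf1ESCs as the reference, 144 of the 182 named genes kept their direction and call, 11 trophectoderm and 3 DNA methylation genes were called, and 13 genes changed sign. Of these, 6 were called against at least 1 reference: Dazl (1.83), Inhbb (1.46), Msx1 (−1.32), Nanos3 (−1.64), Tcl1 (−0.71) and Tet2 (0.12). The other 7 were called against neither: Apobec1 (0.43), Dnmt3l (0.89), Fut9 (−0.63), Id4 (−0.34), Itga6 (0.68), Kit (−0.20) and Nr0b1 (0.033). Among genes with a difference near 0, Alpl, Apobec1 and Dnmt3b turned to 0.070, 0.042 and 0.049 with library totals, Alpl and Apobec1 to 0.064 and 0.28 with chromosome medians subtracted, and leaving out each library gave −0.084 to 0.039 for Alpl, −0.21 to 0.12 for Apobec1, −0.87 to 0.020 for Dazl and −0.26 to 0.16 for Dnmt3b, none of them called. The cause was not tested.

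The chromosome 6, 11 and X medians were −0.021, 0.47 and 0.30 against tc;Sf1ESCs, −0.24, 0.60 and 0.34 with library totals, −0.33, 0.50 and 0.24 with RLE size factors, −0.17, 0.56 and 0.40 over every gene with a count, −0.33, 0.51 and 0.25 in a fit of the 4 libraries, and −0.35, 0.47 and 0.15 over genes with a mean count above 100. Leaving out each library gave −0.37 to −0.32 for chromosome 6, 0.46 to 0.51 for chromosome 11 and 0.19 to 0.27 for X.

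A replicate block gave 3072 higher and 1862 lower genes, 4899 of them called without it too, and Tcl1 was the only named gene to lose its call. The deviations of same-numbered libraries correlated at r = 0.0355 across 16473 genes, so the numbers gave no sign of a pairing. With 2 libraries a group, genes near the fold limit or under about 3 reads per library are the least certain.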

Other observations

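Interferon-stimulated genes, a list put together after their values were seen, were higher in tod-PGCLCs than in tcESCs. Of 36 genes, all tested, 28 were called higher (18.7% among all genes), none lower and 8 were not called, and 19 had a mean count above 10 in 1 group only. The median log2 fold change was 6.12, or 4.97 with genes without a tcESC read set at their lower bound. Oasl2, an antiviral protein, was at 0.943 and 0.745 CPM in tcESCs and at 124 and 127 CPM in tod-PGCLCs (7.22 ± 0.11). Irgm1, an interferon-induced GTPase, rose from 5.58 and 5.08 CPM to 183 and 228 CPM, and Bst2 (tetherin), a restriction factor, from 61.0 and 66.5 CPM to 288 and 313 CPM. The genes of the interferon transcription complex Stat2 (58.2 and 55.4 against 66.1 and 59.9 CPM) and Irf9 (37.9 and 34.0 against 37.8 and 44.5 CPM) were not called. The list summed to 658 and 640 CPM in tcESCs, 1842 and 1955 CPM in tod-PGCLCs and 5028 and 5104 CPM in SCLCs.

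X-linked genes of the Rhox, Xlr and Mage families, also listed after their values were seen, were higher too. Of 63 genes, 29 were tested, with 21 called higher, 1 (Magee2) lower and 7 not called, beside 18.7% called higher among all genes and 28.2% among those of the X chromosome, and 11 had a mean count above 10 in 1 group only. The median was 3.43, or 3.24 with bounds. Against tc;Sf1ESCs, 16 were called higher and 4 lower, beside 20.1% and 12.9% of all genes. Rhox5, a homeobox gene known to be silenced by methylation in many tissues, rose from 27.4 and 28.2 CPM to 324 and 333 CPM (3.56 ± 0.09). The tc;Sf1ESCs held 92.3 and 99.8 CPM of Rhox5, and the log2 difference from them was 1.77. The list summed to 263 and 284 CPM in tcESCs, 461 and 457 CPM in tc;Sf1ESCs, 841 and 854 CPM in tod-PGCLCs and 1187 and 1272 CPM in SCLCs. Many members have near-identical copies, and their counts are uncertain for that reason.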
